A study of Mus musculus with 7 samples.

Results

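Keratins are the intermediate filament proteins of epithelial cells, and 8 keratin genes were followed here through 7 mouse esophageal epithelial cell lines. Of these, 4 are stress keratins (Krt6a, Krt6b, Krt16 and Krt17) and 4 are keratins of simple epithelia (Krt7, Krt8, Krt18 and Krt19). They were taken by symbol from a table of 23955 gene names, which holds 44 other keratin genes. All 8 passed the filter on low counts, as did 15 of the 44 others and 13768 genes in all.

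Expression levels are given as CPM, counts relative to library size and scaled with TMM factors by edgeR. RNA came from 3 lines with the p53 missense allele p53R172H (mutant 1, 2 and 3), 2 lines lacking p53 (null 1 and null 3) and 2 wild-type lines (WT 1 and WT 2), all on a mixed strain background and grown on plastic in KSFM, a keratinocyte serum-free medium. Every mutant and null line carried the treatment label 4NQO, a carcinogen used to induce tumours of the mouth and esophagus in mice, and neither WT line did. Levels of Xist, which silences the X chromosome in female cells, were 0.152 to 0.964 CPM in mutant and null lines, against 675.4 and 1653 CPM in WT lines. The Y-linked Ddx3y was at 67.4 to 77.0 CPM in the mutant lines, 0.0304 and 96.4 CPM in the null lines, and 0.987 and 0.0812 CPM in the WT lines. Genotype, 4NQO and sex-linked differences therefore cannot be told apart in a comparison with WT. In mutant against null, null 1 (0.0304 CPM of Ddx3y) also differed from the mutant lines, while null 3 (96.4 CPM) had it. Genotype and sex-linked differences are thus partly mixed there too. The labels give neither the zygosity of the allele nor the animals behind the lines. Libraries held 12751118 to 47000225 counts. Trp53 was at 171.6 to 253.9 CPM in mutant lines, 8.73 and 4.71 CPM in null lines, and 211.6 and 192.7 CPM in WT lines. Log2 fold changes come from edgeR's quasi-likelihood test over all 13768 genes, with Benjamini-Hochberg adjusted p-values and a threshold of 0.05.

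Keratin filaments are built from pairs of a type II and a type I protein. Krt6a, Krt6b, Krt7 and Krt8 encode type II proteins, while Krt16, Krt17, Krt18 and Krt19 encode type I proteins. Stress keratins are known to be induced in stratified epithelium by wounding and hyperproliferation, and simple keratins make up the filaments of glandular and columnar epithelia and are often re-expressed in squamous carcinoma. The stratified esophagus rests on a basal layer that makes Krt5 and Krt14, and its suprabasal cells make Krt4 and Krt13.

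Keratin paralogs are close in sequence, which bears on how their reads can be assigned. Between Krt6a and Krt6b, which are next to each other in the RefSeq annotation, 97.8% of 1662 aligned coding bases were identical. The stretch of 120 coding bases that differs most between them (bases 751 to 870 from the start codon in both genes, 17 differences) is shown because reads can be told apart where the genes differ, with differing bases in capitals. Sequences are GENCODE M21 transcripts on the build GRCm38.
Krt6a: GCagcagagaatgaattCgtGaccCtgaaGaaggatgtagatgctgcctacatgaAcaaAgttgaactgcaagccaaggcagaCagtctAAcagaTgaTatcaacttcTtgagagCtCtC
Krt6b: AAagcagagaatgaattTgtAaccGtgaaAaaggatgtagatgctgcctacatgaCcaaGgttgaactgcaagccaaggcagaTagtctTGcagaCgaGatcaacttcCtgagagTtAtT
The type I pair Krt16 and Krt17 are also neighbours but are less alike, with 78.2% identity over 1285 aligned coding bases. Their most different 120 bases (bases 523 to 642 in Krt16 and 436 to 555 in Krt17) held 38 differences.
Krt16: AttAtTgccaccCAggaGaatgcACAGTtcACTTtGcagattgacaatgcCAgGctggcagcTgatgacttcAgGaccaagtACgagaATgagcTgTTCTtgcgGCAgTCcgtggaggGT
Krt17: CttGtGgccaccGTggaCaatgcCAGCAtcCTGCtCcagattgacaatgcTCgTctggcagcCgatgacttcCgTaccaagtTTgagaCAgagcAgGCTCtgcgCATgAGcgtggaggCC
The closest relative of Krt16 in the set compared was Krt14, the basal type I keratin, with 86.5% identity.

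Of the 50-base windows of the Krt6a mRNA, 49.5% also occurred without a mismatch in a transcript of another gene, and 43.6% occurred in Krt6b. For the Krt6b mRNA the share was 50.1%, with 44.5% in Krt6a. For Krt16 it was 37.6%, with 25.2% in the gene model Gm11597 and 12.4% in Krt14. Krt8 shared 26.9% with its pseudogene Krt8-ps. Krt17 shared 3.99%, Krt18 0.72%, and Krt7 and Krt19 shared 0%. The gene model Gm5478 held 9.96% of the Krt6a windows and 9.33% of the Krt6b windows, and Krt5 held 6.73% and 2.24%. Krt5 was at 13830 and 21400 CPM in WT 1 and WT 2 and at 2035 to 4214 CPM in the other lines. Whether reads of Krt5 add to Krt6a or Krt6b was not tested. The rule for reads with several matches and the read length were not stated, so the counts of Krt6a, Krt6b, Krt16 and Krt8 are uncertain to that extent.

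**Figure D1:**
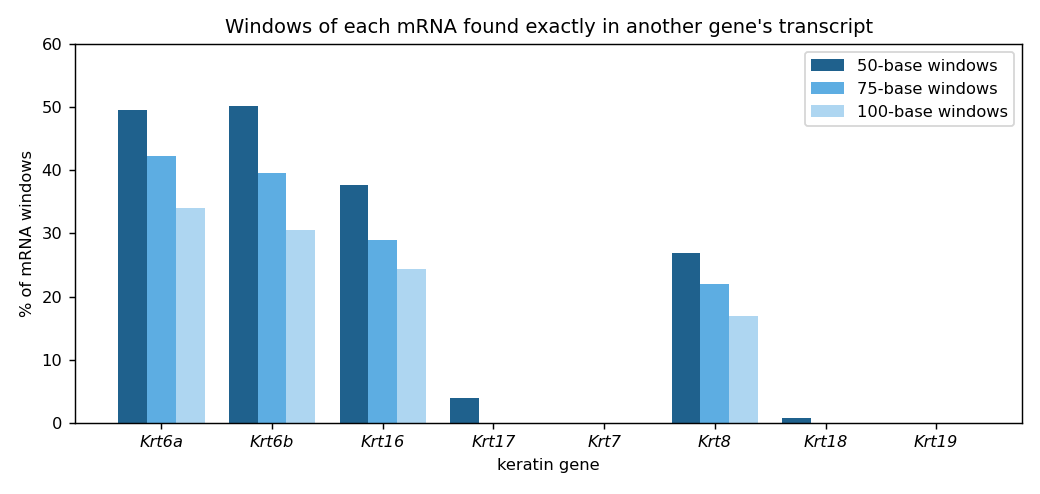
Share of windows of each keratin mRNA (percent, GENCODE M21 transcripts) that also occur without a mismatch in a transcript of another gene, for windows of 50, 75 and 100 bases. Krt6a and Krt6b stand highest at every window length (34% and 30.6% at 100 bases), and Krt7 and Krt19 share no window at any of the 3 lengths.

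Krt16, a type I partner of the Krt6 proteins, was the only member that edgeR called with all 7 libraries, and it was called in mutant against WT only. It had 61.6, 32.1 and 19.1 CPM in mutant 1, 2 and 3, 57.1 and 55.8 CPM in null 1 and null 3, and 247.1 and 332.6 CPM in WT 1 and WT 2. Every mutant and null line was below both WT lines, and the null values lay inside the range of the mutant ones. In mutant against WT lines Krt16 fell by 2.95 on the log2 scale (SE 0.4555, edgeR adjusted p = 0.0253). The means were 37.6 ± 21.8 CPM in mutant lines (SD, n = 3) and 289.8 ± 60.5 CPM in WT lines (SD, n = 2). This was 1 of the 8 keratins called in mutant against WT, where 7.42% of all genes were called. The call was lost without WT 1 (log2 fold change -3.14, edgeR adjusted p = 0.117), WT 2 (-2.72, adjusted p = 0.182), mutant 2 (-2.86, adjusted p = 0.0741) or mutant 3 (-2.64, adjusted p = 0.0746). For null against WT the log2 fold change was -2.36 (SE 0.517, edgeR adjusted p = 0.112), and for mutant against null it was -0.59 (SE 0.446, edgeR adjusted p = 0.571). Krt14, which shares sequence with Krt16, was at 3505, 6430 and 3606 CPM in mutant lines, 4067 and 2399 CPM in null lines and 11360 and 14410 CPM in WT lines. Whether reads of Krt14 add to Krt16 was not tested.

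Krt6a, the more abundant of the stress type II keratins, had 3293, 767.2 and 1386 CPM in mutant 1, 2 and 3, 1347 and 2256 CPM in null 1 and null 3, and 5784 and 5230 CPM in WT 1 and WT 2. The WT lines were alike and above all 5 other lines, and mutant and null values were interleaved. The log2 fold change was -1.60 in mutant against WT (SE 0.578, edgeR adjusted p = 0.122) and -1.61 in null against WT (SE 0.657, edgeR adjusted p = 0.24). In mutant against null it was 0.01 with a 95% interval of -1.38 to 1.41.

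Krt6b, its close paralog, had the widest range of the 8 genes. It was at 18.4, 0.214 and 1.08 CPM in mutant 1, 2 and 3, at 27.0 and 21.2 CPM in null 1 and null 3, and at 123.1 and 224.6 CPM in WT 1 and WT 2. The 3 groups did not overlap, with WT highest and mutant lowest, and mutant 1 stood far above mutant 2 and mutant 3. The log2 fold change in mutant against WT was -4.72 with an SE of 1.52 and did not pass (edgeR adjusted p = 0.098). Null against WT gave -2.85 (SE 1.65, edgeR adjusted p = 0.361) and mutant against null gave -1.87 (SE 1.40, edgeR adjusted p = 0.567). With 1 library left out, the value in mutant against null ran from -5.22 (without mutant 1, edgeR adjusted p = 0.0763) to -1.30 (without mutant 2). Krt6a and Krt6b summed gave -0.0028, but that sum is nearly all Krt6a, with Krt6b at most 4.12% of it in any line. Mutant 2 had 9 counts of Krt6b beside 32329 of Krt6a. Krt6b thus made up 0.0278% of the counts of both genes there (exact 95% binomial interval 0.0127 to 0.0528%, counting error only), against 4.12% in WT 2 (3.97 to 4.27%). The share was 0.556% in mutant 1, 0.0777% in mutant 3, 1.96% in null 1, 0.93% in null 3 and 2.08% in WT 1.

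Krt17, another type I partner of the Krt6 proteins, was the most abundant member per length in every line. It had 5334, 1510 and 2755 CPM in mutant 1, 2 and 3, 6306 and 5409 CPM in null 1 and null 3, and 9939 and 5734 CPM in WT 1 and WT 2. The mutant lines were below both WT lines, but null 1 was above WT 2. The log2 fold change was -1.29 in mutant against WT (SE 0.52, edgeR adjusted p = 0.152), -0.42 in null against WT (SE 0.578, edgeR adjusted p = 0.71) and -0.87 in mutant against null (SE 0.52, edgeR adjusted p = 0.475).

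As a set, 1 of the 4 stress keratins was called lower in mutant against WT and none in the other 2 comparisons by edgeR. An unadjusted p under 0.05 was seen for 4 of 4 in mutant against WT (30.5% of all genes), 2 of 4 in null against WT (20.2%) and 0 of 4 in mutant against null (14%). Over all genes, 4.13% were called lower in mutant against WT and 3.3% higher, 0.138% were called in either direction in null against WT, and 0% in mutant against null. DESeq2 called Krt6a, Krt16 and Krt17 in mutant against WT, Krt6a and Krt16 in null against WT, and Krt19 in mutant against null, where it called 23.8%, 11.8% and 4.69% of the genes to which it gave an adjusted p. It gave none for Krt6b in any comparison. All 4 stress keratins had every mutant line below both WT lines, against 25.7% of all genes, and 3 of 4 had both null lines below both WT lines, against 27.1% of all genes. Krt6b and Krt17 had every mutant line below both null lines, against 15.1% of all genes. The median log2 fold change of the 4 was -2.27 in mutant against WT, -1.99 in null against WT and -0.73 in mutant against null, beside medians of 0.08, 0.06 and 0.02 over all genes. Mutant 1 had the highest level of each stress keratin among the mutant lines. Without mutant 1, edgeR called all 4 lower in mutant against WT, with log2 fold changes of -2.37 for Krt6a, -8.07 for Krt6b, -3.52 for Krt16 and -1.89 for Krt17, and 5.93% of all genes were called lower in that fit. Without mutant 2, mutant 3, WT 1 or WT 2 it called 0 of the 4, and 37, 6, 0 and 0 genes in all (unadjusted p under 0.05 in 3493, 3187, 2840 and 2207 genes).

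**Figure D2:**
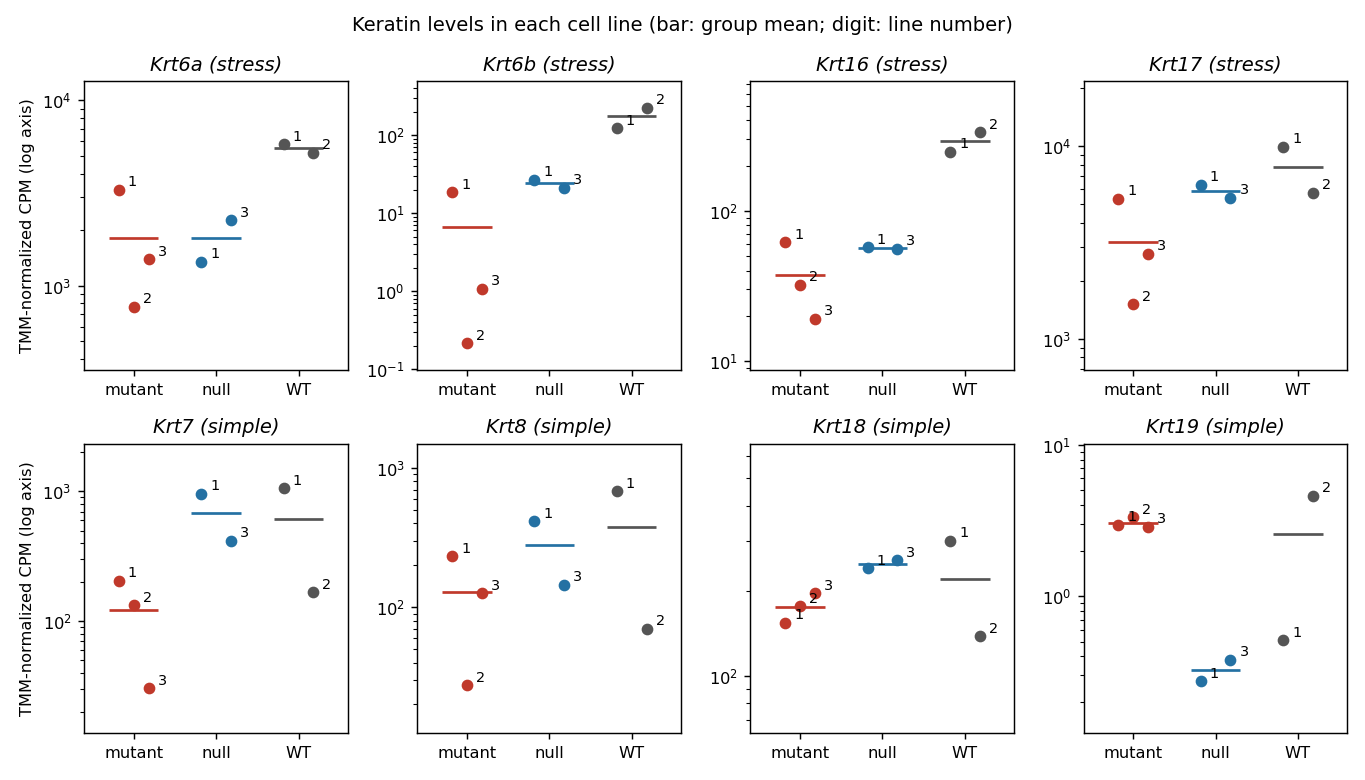
TMM-normalized CPM (log axis, a different range in each panel) of the 8 keratins in each mutant, null and WT line, with a point per line, its number, and a bar at the group mean. In the upper row every WT point lies above every mutant point, while in the lower row WT 1 and WT 2 stand far apart in Krt7, Krt8 and Krt19.

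Among the simple keratins, the WT lines were 6.34-fold apart in Krt7, 9.71-fold in Krt8, 2.18-fold in Krt18 and 9.07-fold in Krt19. Krt7, the type II keratin of ducts and glands, had 205, 133.2 and 30.4 CPM in mutant 1, 2 and 3, 956.6 and 415.5 CPM in null 1 and null 3, and 1059 and 167 CPM in WT 1 and WT 2. Both null lines were above all mutant lines, and WT 2 lay within the mutant range while WT 1 was the highest of all. The log2 fold change was -2.48 in mutant against null (SE 0.956, unadjusted p = 0.0371, edgeR adjusted p = 0.331) and -2.32 in mutant against WT (SE 0.953, edgeR adjusted p = 0.158). Without WT 1 the value against WT was -0.43. Between null and WT lines it was 0.16 (SE 1.04, edgeR adjusted p = 0.944).

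Krt8, the type II keratin of simple epithelia, had 232.4, 27.5 and 126 CPM in mutant 1, 2 and 3, 414.4 and 144.3 CPM in null 1 and null 3, and 678.6 and 69.9 CPM in WT 1 and WT 2. All 3 groups overlapped. The ratio of WT 1 to WT 2 was larger than in 99.4% of the 10436 genes with a mean of at least 5 CPM, whose median ratio between the WT lines was 1.19. The raw counts behind it were 19948 in WT 1 and 861 in WT 2. The log2 fold change was -1.54 in mutant against WT (SE 1.09, edgeR adjusted p = 0.366) and was 0.89 without WT 1. Between null and WT lines it was -0.42 (SE 1.21, edgeR adjusted p = 0.866), and 2.00 without WT 1.

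Krt18, the type I partner of Krt8, was the steadiest member. It had 154.3, 176.2 and 196.1 CPM in mutant 1, 2 and 3, 240.2 and 256.3 CPM in null 1 and null 3, and 301.6 and 138.4 CPM in WT 1 and WT 2. The highest line was 2.18-fold above the lowest, against 24.7-fold for Krt8 and 34.8-fold for Krt7. Those lines were WT 1 and WT 2, and their ratio was still larger than in 96.25% of the 10436 genes compared between WT lines. Both null lines were above the 3 mutant lines, with a log2 fold change of -0.50 in mutant against null (95% interval -1.25 to 0.25, edgeR adjusted p = 0.495). In mutant against WT the interval was -1.08 to 0.42 and in null against WT -0.65 to 1.0.

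Krt19, a small type I keratin of simple epithelia, was at low levels. It had 146, 140 and 125 counts in mutant 1, 2 and 3, 9 and 10 counts in null 1 and null 3, and 15 and 57 counts in WT 1 and WT 2. These correspond to 2.97, 3.32 and 2.87 CPM, to 0.274 and 0.38 CPM, and to 0.51 and 4.63 CPM in the same lines. The mutant lines were alike and all above the null lines, and the WT lines lay on either side of them. The log2 fold change of 3.21 in mutant against null (SE 1.0, unadjusted p = 0.0158) had an edgeR adjusted p of 0.291, and DESeq2 gave 0.0398. The value in null against WT was -2.95 (SE 1.03, edgeR adjusted p = 0.198), and without WT 2 it was -0.65.

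None of the 4 simple keratins was called by edgeR in any comparison. Of all genes it called 7.42% in mutant against WT, 0.138% in null against WT and 0% in mutant against null. In mutant against WT 1 of 4 had an unadjusted p under 0.05 (Krt7), as had 1 in null against WT (Krt19) and 2 in mutant against null (Krt7 and Krt19). Over all genes the shares at an unadjusted p under 0.05 were 30.5%, 20.2% and 14% in these comparisons. No simple keratin separated all mutant from all WT lines, and 25.7% of all genes had every mutant line below both WT lines. Krt7 and Krt18 had every mutant line below both null lines, against 15.1% of all genes. Krt19 had every mutant line above both null lines, against 16% of all genes. It also had both null lines below both WT lines, against 27.1% of all genes. The median log2 fold change of the 4 was -0.93 in mutant against WT, -0.13 in null against WT and -0.81 in mutant against null.

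**Figure D3:**
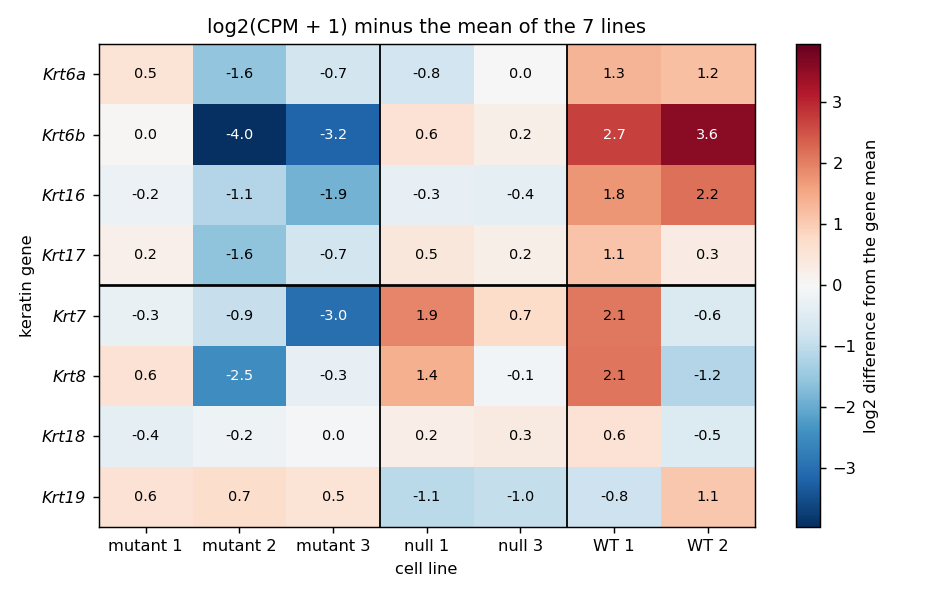
Level of each keratin in each line as log2(CPM + 1) minus the gene's mean over the 7 lines, with mutant, null and WT lines from left to right and stress keratins above the thick line. Krt6a, Krt6b and Krt16 are highest in the 2 WT lines, whereas Krt7 and Krt8 are at 2.08 and 2.11 in WT 1 and at -0.58 and -1.16 in WT 2.

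Krt7, Krt8 and Krt18 had an entry in the RefSeq promoter table (3 of 8 members, build GRCm38.p6), and Krt8 and Krt18 are neighbouring genes on opposite strands. Their upstream sequences are shown because Krt7 and Krt8 varied more widely between lines than Krt18, the neighbour of Krt8. Each run holds the 250 bases before the start site, with capitals at matches on either strand to the E-box CACCTG, a sequence that Snail and Zeb family repressors are known to bind, and to the GC box GGGCGG.
Krt7, chr15:101412153-101412402, plus strand: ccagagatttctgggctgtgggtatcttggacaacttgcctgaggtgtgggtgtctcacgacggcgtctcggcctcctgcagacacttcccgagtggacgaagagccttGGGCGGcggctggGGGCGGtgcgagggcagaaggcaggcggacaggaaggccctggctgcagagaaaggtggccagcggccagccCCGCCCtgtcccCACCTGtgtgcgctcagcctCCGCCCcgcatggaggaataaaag
Krt8, chr15:102004343-102004592, minus strand: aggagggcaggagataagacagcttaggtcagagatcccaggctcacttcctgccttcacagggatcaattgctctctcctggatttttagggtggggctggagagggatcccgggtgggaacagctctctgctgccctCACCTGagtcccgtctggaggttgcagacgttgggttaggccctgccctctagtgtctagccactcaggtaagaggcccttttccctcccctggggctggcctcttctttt
Krt18, chr15:102027966-102028215, plus strand: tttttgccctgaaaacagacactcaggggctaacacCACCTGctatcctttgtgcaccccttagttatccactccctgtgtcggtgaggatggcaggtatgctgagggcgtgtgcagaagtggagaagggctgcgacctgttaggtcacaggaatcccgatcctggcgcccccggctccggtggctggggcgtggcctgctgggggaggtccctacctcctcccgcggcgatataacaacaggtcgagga
Each of the 3 windows held 1 E-box match, at 44, 111 and 214 bases before the start in Krt7, Krt8 and Krt18, against 17.2% of all 32851 windows of this length with at least 1. Krt7 held 4 GC box matches and the other 2 windows held 0, where 32.7% of all windows had at least 1. The letters TATAAA (12.4% of all windows) and the AP-1 motif TGANTCA (6.75%) were not in any of the 3. The motifs did not overlap each other in these windows. These are matches of letters only.

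Partner genes did not keep a fixed ratio. The CPM ratio of Krt8 to Krt18 was 1.51, 0.156 and 0.642 in mutant 1, 2 and 3, 1.72 and 0.563 in null 1 and null 3, and 2.25 and 0.505 in WT 1 and WT 2. Per kilobase of coding length, Krt8 stood above Krt18 in mutant 1, null 1 and WT 1 and below it in the other 4 lines. Over the 7 lines log2(CPM + 1) had an SD of 1.54 for Krt8 and 0.407 for Krt18. With 1 CPM added to each level, the mean log2 ratio of Krt8 to Krt18 was -0.90 in mutant and 0.10 in WT lines, with an exact 2-sided permutation p of 0.5. The difference of -0.99 was -0.12 without mutant 2, 0.08 without WT 1, -1.73 without mutant 1 and -2.06 without WT 2. The ratio of Krt6b to Krt17 was lower in every mutant line than in either WT line, with mean log2 ratios of -9.59 in mutant and -5.50 in WT, and an exact 2-sided permutation p of 0.1, the smallest that 3 against 2 lines can give. That difference of -4.09 also rests on the added 1 CPM, since Krt6b was near or below that level in mutant 2 and mutant 3. It was -5.03 with 0.1 CPM and -2.82 with 5 CPM added. The Krt7 to Krt19 ratio was 10.61 to 69.05 in mutant lines, 3493 and 1094 in null lines, and 2076 and 36.09 in WT lines. The mean log2 ratio was 4.56 in mutant and 8.90 in null lines, with an exact 2-sided permutation p of 0.1. That difference of -4.34 was -5.64 with 0.1 CPM and -3.25 with 5 CPM added, with Krt19 under 1 CPM in both null lines. Krt6a to Krt16 ran from 15.73 to 72.61 over the 7 lines, with no exact 2-sided permutation p under 0.3. Over 4 partner pairs and 3 comparisons, 12 tests in all, no adjusted p was under 0.6. The smallest possible exact p was 0.1 for 3 against 2 lines and 0.333 for 2 against 2. None of these tests could therefore have given a p under 0.05.

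Compared per kilobase of coding length, Krt17 and then Krt6a were the most abundant members in all 7 lines. Krt17 stood at 4097, 1160 and 2116 CPM per kilobase in mutant 1, 2 and 3, 4843 and 4154 in null 1 and null 3, and 7634 and 4404 in WT 1 and WT 2. Krt6a stood at 1981, 461.6 and 833.9 CPM per kilobase in the mutant lines, 810.5 and 1357 in the null lines, and 3480 and 3147 in the WT lines. Below these the order differed between lines. Krt16 was in the third place in WT 2, ahead of all simple keratins, while Krt7 held it in null 1, null 3 and WT 1, Krt8 in mutant 1, and Krt18 in mutant 2 and mutant 3. Krt19 or Krt6b was last in every line. With lengths of whole mRNAs the first places of Krt17 and Krt6a were the same, but Krt8 took the third place in WT 1 and Krt18 in null 3.

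**Figure D4:**
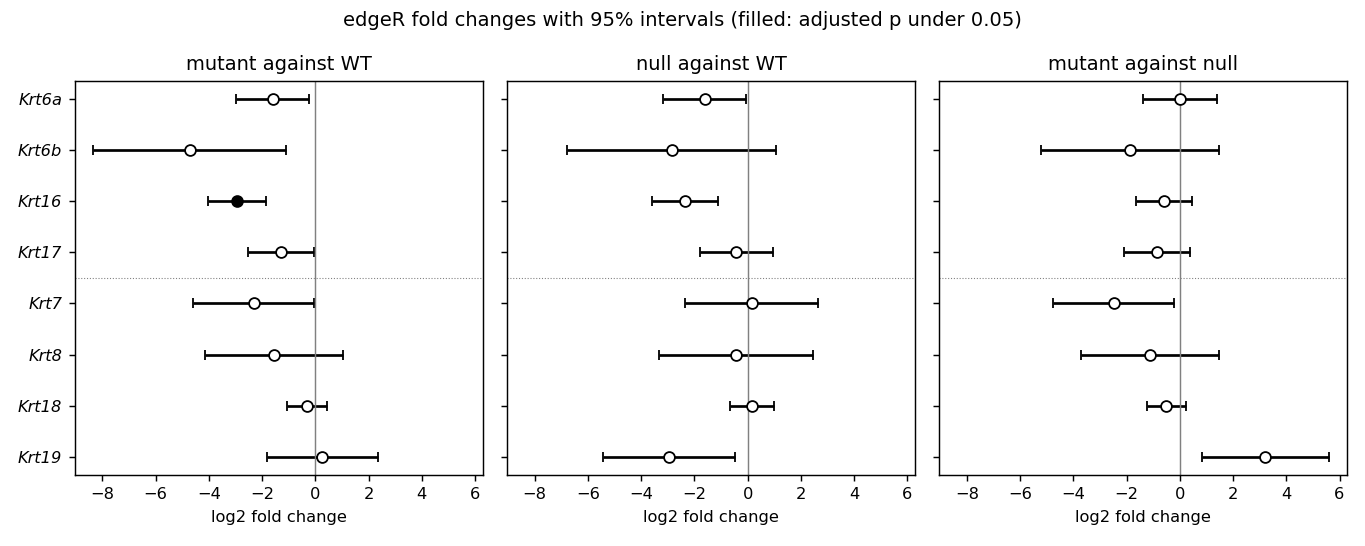
edgeR log2 fold changes (points) with 95% intervals (bars) of the 8 keratins in the 3 comparisons, stress keratins above the dotted line and filled points for an adjusted p under 0.05. Krt16 in mutant against WT, at -2.95, is the only filled point.

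Together the 8 genes made up 9302, 2650 and 4516 CPM in mutant 1, 2 and 3, 9348 and 8559 CPM in null 1 and null 3, and 18130 and 11900 CPM in WT 1 and WT 2. The sum over all 52 keratin genes was 10380 to 17110 CPM in mutant lines, 13260 and 17630 CPM in null lines, and 43570 and 48100 CPM in WT lines, and the WT lines were above all others. The members were 22.3 to 54.4% of the keratin sum in mutant lines, 53 and 64.5% in null lines, and 41.6 and 24.7% in WT lines. In RNA from whole cultures, fewer cells that make a keratin and less keratin RNA per cell cannot be told apart. Krt5, the basal type II keratin, was called lower in mutant against WT (log2 fold change -2.53, SE 0.426, edgeR adjusted p = 0.0289), and so was Krt13 (-4.88, SE 0.871, adjusted p = 0.0321). They were the 2 of 9 tested basal and suprabasal keratins that were called, with 4.13% of all genes called lower.

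Among 8 other epithelial keratins, 4 were tested and 2 were called lower in mutant against WT, where 4.13% of all genes were called lower. Krt20, an intestinal and urothelial type I keratin, was at 0.976, 1.19 and 0.138 CPM in mutant lines, 0.152 and 0.418 CPM in null lines, and 51.9 and 85.4 CPM in WT lines (log2 fold change in mutant against WT -6.48, SE 0.864, edgeR adjusted p = 0.0212). Only the WT lines held it above 2 CPM. Krt23 was at 0.138 to 0.57 CPM in mutant lines, 5.78 and 5.09 CPM in null lines, and 10.0 and 15.3 CPM in WT lines (-5.41, SE 0.728, edgeR adjusted p = 0.0212). Krt42, the neighbour of Krt17, was named after its values were seen. It was at 2.48, 0.57 and 2.18 CPM in mutant lines, 34.6 and 130.7 CPM in null lines, and 9.39 and 14.2 CPM in WT lines, and in mutant against null its log2 fold change of -5.56 (SE 0.801) had an edgeR adjusted p of 0.258. Of 23 keratins of hair and its root sheath, 2 were tested and none was called by edgeR, and the larger of their levels, that of Krt39, was at most 1.95 CPM.

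Proteins that tie keratin filaments to junctions and the cytoskeleton were read from a list of 19 genes, all tested. In mutant against WT 4 fell and none rose by edgeR, with a median log2 fold change of -0.70 over the list and 0.08 over all genes, of which 4.13% were called lower. Ppl (periplakin) changed by -2.81, Evpl (envoplakin) by -3.52, Plec (plectin) by -1.34 and Pkp3 (the desmosomal plakophilin 3) by -1.10, with edgeR adjusted p = 0.0192, 0.0307, 0.0302 and 0.0376. Of 19 tested genes of simple and polarized epithelium, 10 fell and none rose in mutant against WT, against 4.13% of all genes called lower. Rab25, a GTPase of apical recycling, changed by -2.54, Marveld2 (tricellulin) by -3.90, Spint2, a membrane protease inhibitor, by -1.06 and the epithelial transcription factor Elf3 by -2.53 (edgeR adjusted p = 0.0249, 0.0264, 0.0331 and 0.0376). In null against WT and in mutant against null neither list had a called gene by edgeR. The simple epithelium list had a median of -0.06 in null against WT and -1.86 in mutant against null.

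Of 23 tested genes of the activated keratinocyte, 3 fell in mutant against WT and none rose by edgeR, where 4.13% of all genes were called lower and 3.3% higher. These were the cytokine Tnf (-6.27, edgeR adjusted p = 0.0264) and the EGF receptor ligands Tgfa (-1.16, adjusted p = 0.0352) and Areg (-1.97, adjusted p = 0.0463). The list's median was -0.58 in mutant against WT, 0.26 in null against WT and -0.64 in mutant against null, with none called by edgeR in the last 2. No intermediate filament gene outside the keratins was called by edgeR among 11 tested. Lmnb1 (lamin B1) had a log2 fold change of -0.77 in mutant against WT (edgeR adjusted p = 0.0592). Vim (vimentin) was at 343.4, 576.9 and 825 CPM in mutant lines, 2.71 and 224.8 CPM in null lines, and 0.646 and 3.41 CPM in WT lines (log2 fold change in mutant against WT 8.29, edgeR adjusted p = 0.0599).

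Markers were read beside these results. The 10 squamous esophageal markers summed to 7803 to 11030 CPM in mutant lines, 6346 and 11310 CPM in null lines, and 27980 and 38930 CPM in WT lines, and Trp63 was at 168.1 to 440.5 CPM in all 7 lines. Of these markers only Krt4 in mutant 2 had no count. Krt5 and Krt14 made up most of their sum in every line, at 13830 and 11360 CPM in WT 1. The 10 fibroblast markers summed to 613.1, 10.96 and 439.6 CPM in mutant 1, 2 and 3, 8.16 and 522.3 CPM in null 1 and null 3, and 5.78 and 8.85 CPM in WT 1 and WT 2, with at most 6 at 0 in any line. The lowest line was mutant 2 in Krt6a, Krt6b, Krt17 and Krt8, and mutant 3 in Krt16 and Krt7. It was WT 2 in Krt18 and null 1 in Krt19. The 10 muscle markers summed to 238.5 to 899.3 CPM in mutant lines, 97.0 and 543.3 CPM in null lines, and 269 and 453.6 CPM in WT lines. The 9 immune markers in the table summed to 26.3 to 95.3 CPM, the 8 endothelial ones to 2.6 to 6.22 CPM and the 13 gastric and intestinal columnar ones to 1.22 to 13.7 CPM over all lines, with 2 to 6, 1 to 3 and 5 to 10 of them at 0 in a line. Most of the immune sum was Cd68, at 22.5 to 91.8 CPM, and 7 of the 9 immune genes were under 1 CPM in every line. The highest columnar sum, 13.7 CPM in mutant 1, held 12.9 CPM of Gata4. The part of other cell types in the keratin differences was not tested.

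Likeness to each member was measured as Pearson's r of log2(CPM + 1) over the 7 lines, among genes with a mean of at least 5 CPM. These values share libraries and group structure and describe these lines only. The genes most like Krt16 were Lama3 (a laminin chain of the epithelial basement membrane, r = 0.998), Tmbim1 (0.996) and Uqcrc1 (0.989). Those most like Krt6a were Ube2e2 (0.984), Elk3 (0.978) and the AP-1 subunit Fos (0.973), and those most like Krt6b were Casq2 (0.993), Rnf217 (0.99) and Fermt1 (kindlin-1, 0.989). Krt17 was most like the serine protease gene Tmprss11e (0.98), Cdcp1 (0.974) and Acsbg1 (0.968). Among simple keratins, Krt7 was most like Decr2 (0.994), Nudt16 (0.98) and Mllt4 (afadin, 0.975), and Krt8 was most like Oaz2 (0.96), Cdc37 (0.946) and Dapp1 (0.936). Genes like Krt18 included Zfpl1 (0.93) and Abhd17a (0.915), and Krt19 was most like Nde1 (0.97), Dek (0.961) and Ddx59 (0.959).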

How the data were processed

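Stranded TruSeq libraries of polyadenylated RNA were sequenced, per the labels. The authors deposited a table of raw counts per gene name. Alignment used STAR 2.5.1b, and mm9 is the genome named, per the submitters' processing notes. How reads were counted, with which strand setting and annotation, is not given in the sources used here. The 92 spike-in names, with 0 counts in all, were left out, and 27 date-like names were kept and not named.

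Counts were tested in R 4.3.3 with edgeR 4.0.16 (quasi-likelihood F test, TMM factors, the default expression filter with a minimum count of 10, Benjamini-Hochberg adjustment, threshold 0.05). All 7 libraries entered one fit without a replicate block. Standard errors were derived from the F statistic and 95% intervals use its 6.7 degrees of freedom. p-values measure the spread between lines, which the labels do not tie to separate animals. No pair of libraries in a group agreed within sampling noise (chi-square over its degrees of freedom was 55.9 to 233.6). The members and lists were chosen with earlier results of these data known. The text names the members, from each list up to 4 called genes (with none called, the 2 of smallest p), and the 3 genes most like each member. For Krt18, 1 of these is not reported here. Coding sequences and windows were compared with Biopython 1.88. The fit was first tested on simulated counts. Alternatives used DESeq2 1.42.0, limma 3.58.1 and the settings named under the processing section.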

Additional observations from a re-analysis of the deposited data

How the results depend on the processing

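Krt16 kept its direction in mutant against WT under all 19 alternatives and was called in 13 of them. DESeq2 called 3 members in mutant against WT, 2 in null against WT and 1 in mutant against null, and limma-voom called 2 in mutant against WT (Krt16 and Krt6b). Of all 13768 genes limma-voom called 743 in mutant against WT (3625 at an unadjusted p under 0.05). Leaving out 1 library gave 0 to 4 members in mutant against WT, and 0 in null against WT and in mutant against null by edgeR. Over all genes, edgeR called 1022, 19 and 0 in mutant against WT, null against WT and mutant against null (unadjusted p under 0.05 in 4199, 2777 and 1924), and DESeq2 called 3197, 1548 and 604. In null against WT the count was 77 without a filter, 58 with the newer quasi-likelihood form, 29 with libraries thinned to the smallest total and 0 with limma-voom (2155 at an unadjusted p under 0.05). In mutant against null it was 2 without a filter and 1 with RLE factors, upper-quartile factors, a filter of 5 CPM in 2 libraries, the newer form or thinned libraries. Leaving out 1 library gave 0 to 1420, 0 to 55 and 0 to 22 genes. The cause of these shifts was not tested.

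With the replicate block edgeR called 0 genes and 0 members in each comparison (unadjusted p under 0.05 in 2887, 1454 and 1492 genes), while Krt16 in mutant against WT had a log2 fold change of -2.82 (adjusted p = 0.121). The lines share only a number, and deviations of same-numbered lines from their group means correlated at -0.338 to 0.149. In the null and WT groups, of 2 lines each, the deviations mirror each other, so these values cannot show whether numbers pair lines.

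Of 273 member fold changes under settings other than leaving out a library, 7 turned sign, none of them called. Krt6a in mutant against null was -0.21 with limma-voom and -0.0028 with Krt6a and Krt6b summed. It was -0.0037 without a filter, -0.0017 with thinned libraries and -1.01e-05 with the filter of 5 CPM. Krt8 in null against WT was 0.13 with limma-voom, and Krt18 in null against WT was -0.00026 with the block. Krt16 and Krt17 summed gave -1.33 in mutant against WT (edgeR adjusted p = 0.141). That sum, among the 19 alternatives for Krt16, is nearly all Krt17, whose own value was -1.29, and cannot test Krt16. Krt17 held 63649 to 292165 counts per library and Krt16 832 to 7263. Krt19 could not be fitted under the filter of 5 CPM. Of 168 values with 1 library left out, 11 turned sign. In mutant against WT the ranges were -2.40 to 0.89 for Krt8, -0.78 to 0.35 for Krt18 and -0.59 to 2.57 for Krt19. In null against WT they were -0.77 to 0.034 for Krt17, -0.63 to 2.04 for Krt7, -1.38 to 2.00 for Krt8 and -0.29 to 0.85 for Krt18. Krt6a in mutant against null ran from -0.76 to 0.44. With 12751118 counts, WT 2 was the shallowest library, and Krt19 and Krt6b in mutant 2 rest on few counts.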

Other observations

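Krt7, Krt8 and Krt17 were each highest in mutant 1, null 1 and WT 1 within their groups. Krt7 was at 205, 956.6 and 1059 CPM in these 3 lines and at 30.4 to 415.5 CPM in the other 4. Krt8 was at 232.4, 414.4 and 678.6 CPM there and at 27.5 to 144.3 CPM in the other 4. This was noticed after the values were seen, and the labels do not say that line numbers pair the lines. The WT lines were the most alike pair over all tested genes (Pearson's r of log2 CPM 0.985), although they differed 9.71-fold in Krt8, 9.07-fold in Krt19 and 6.34-fold in Krt7. Krt19 ran against Krt18 over the 7 lines (r = -0.912, Spearman's rho -0.821), as a description of lines that share groups, with Krt19 at 9 to 146 counts. This was the lowest r among all pairs of members. Krt19 also had a negative r with every other member, from -0.774 for Krt7 to -0.0273 for Krt6a.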
